A study of Homo sapiens with 2 samples.

Results

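The 10 genes described here encode ligands, receptors and SMAD proteins of the transforming growth factor beta (TGF-beta) and bone morphogenetic protein (BMP) pathways. They were chosen by name, with no measured value in the rule, as the rows of the deposited table whose gene symbol is TGFB1, TGFB2, TGFBR1, TGFBR2, BMP2, BMP4, BMP7, SMAD2, SMAD4 or SMAD7, and all 10 were found among 20802 amplicons. Transcripts were counted in 2 human prostate cancer cell lines, LNCaP, derived from a metastasis in a lymph node, and MDA PCa 2b, derived from one in bone. Both are labelled wild type, and no treatment beyond the extraction of total RNA is given for either. The series title asks how oncogene and tumour suppressor expression differs between prostate cancer lines in a study of health disparities. Each line had 1 library, made from 10 ng of total RNA with the AmpliSeq Transcriptome kit, which amplifies 1 short amplicon per gene, and 1 line per group leaves the line, its culture and its library inseparable.

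TGF-beta ligands bind the type II receptor TGFBR2, which recruits and phosphorylates the type I receptor TGFBR1. TGFBR1 then phosphorylates SMAD2 and SMAD3, while BMP receptors phosphorylate SMAD1, SMAD5 and SMAD9, and both groups enter the nucleus with the common partner SMAD4. SMAD6 and SMAD7 hold the signal back, and SMAD7 is itself induced by TGF-beta as a feedback inhibitor. In prostate epithelium the TGF-beta arm is known for restraining growth, and BMPs are studied for the bone lesions that prostate cancer forms.

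The LNCaP library held 10778061 counts and the MDA PCa 2b library 8558660. Levels are in CPM, the count after both libraries were brought to the same size with edgeR TMM factors, and a single read counted for 0.0923 CPM (LNCaP) or 0.117 CPM (MDA PCa 2b). Where a library shows 0 counts, up to 3 are allowed by chance, which is 0.277 CPM for LNCaP and 0.352 CPM for MDA PCa 2b. All 10 markers of prostate luminal epithelium used here had at least 10 counts in both lines, with summed levels of 3860 CPM (LNCaP) and 4488 CPM (MDA PCa 2b). Markers of other cell types were low, with summed levels of 22.2 and 19.4 CPM for 8 fibroblast genes, 17.0 and 47.1 CPM for 6 leukocyte genes, 3.51 and 4.35 CPM for 5 endothelial genes and 5.26 and 6.58 CPM for 2 erythroid genes, LNCaP first. Of these lists, 2 fibroblast genes (COL1A2, FAP), 3 leukocyte genes (PTPRC, CD3E, LYZ) and 3 endothelial genes (CDH5, KDR, TEK) were at 0 in both libraries. Others were read near or above the level of the TGF-beta ligands, the leukocyte genes CD68 at 10.7 and 29.5 CPM and CD14 at 6.27 and 17.5 CPM, both called higher in MDA PCa 2b, and the fibroblast genes PDGFRA at 8.12 and 15.6 CPM and COL1A1 at 12.2 and 2.82 CPM. Of the endothelial genes, PECAM1 had 1.66 and 4.23 CPM and was not called, while VWF had 20 and 1 counts and was called higher in LNCaP. The part of such cells in the results was not tested.

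No test was possible, since each line is a single library without replicates. Ratios between the lines carry 95% Clopper-Pearson intervals (exact, given the total of the 2 counts), and levels carry exact Poisson 95% intervals. PCR copies were not told apart by molecular identifiers, so intervals and zero-count limits take each read as independent and may be too narrow. They reflect counting error of reads only. A gene was taken as measured with at least 10 counts in a library, and was called apart when its whole interval lay beyond 2-fold.

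The SMADs, TGFBR1 and TGFB2 had at least 10 counts in both lines. TGFB1 was low, and the other members were hardly read at all. Of the 10 members 6 were measured, TGFB1, TGFB2, TGFBR1, SMAD2, SMAD4 and SMAD7. The other 4, TGFBR2, BMP2, BMP4 and BMP7, stayed under 10 counts in both lines, as did 30.7% of all amplicons. Of the 6 measured members 1 was at least 2-fold apart, TGFB1, higher in MDA PCa 2b, and 0 were higher in LNCaP. Over all 14418 measured genes 24.1% were apart, in favour of MDA PCa 2b for 10.9% and of LNCaP for 13.2%, so 1 of 6 (16.7%) is no more than the background share. TGFB1 passed the count minimum through MDA PCa 2b alone. Of the 5 members with at least 10 counts in both lines 0 were apart, against 20.1% of all such genes (8.89% higher in MDA PCa 2b, 11.2% in LNCaP). The median log2 ratio of the 6 members, MDA PCa 2b over LNCaP, was 0.45, where the median of all measured genes was 0.00 and their quartiles −0.82 and 0.79.

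**Figure D1:**
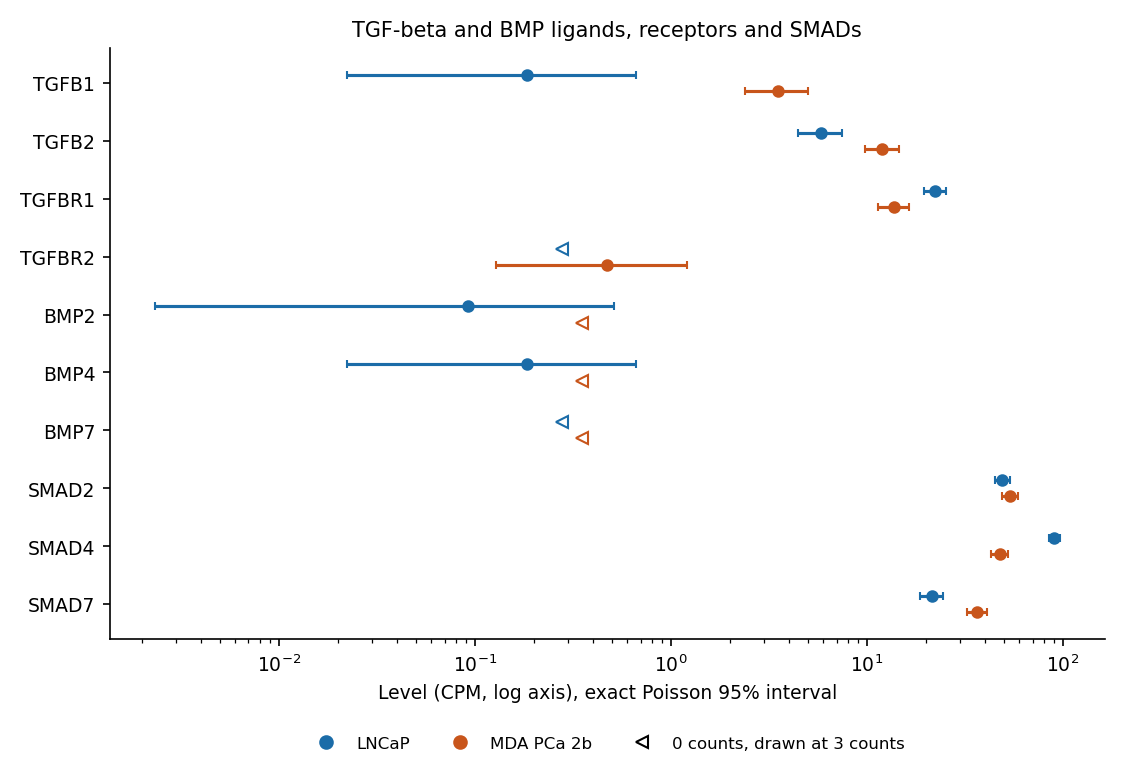
Level of each member in CPM on a log axis, with LNCaP in blue and MDA PCa 2b in orange, 1 library each; bars are exact Poisson 95% intervals and open triangles mark 0 counts, drawn at the level of 3 counts. The 3 SMADs lie between 21.4 and 90.2 CPM in both lines, and TGFBR2 and the 3 BMP ligands lie under 1 CPM.

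The promoter sequences of TGFB1 and TGFB2 are shown because TGFB1 was the member called apart, TGFB2 is its measured relative, and their promoters are built differently. Each is the 250 bases before the RefSeq gene start in build GRCh38.p14, on the gene's strand, chr19:41353923-41354172 (minus strand) for TGFB1 and chr1:218345086-218345335 (plus strand) for TGFB2. Capitals mark matches, on either strand, to the GC box GGGCGG, the TATA box TATAAA and the SMAD-type element CAGACA.
TGFB1: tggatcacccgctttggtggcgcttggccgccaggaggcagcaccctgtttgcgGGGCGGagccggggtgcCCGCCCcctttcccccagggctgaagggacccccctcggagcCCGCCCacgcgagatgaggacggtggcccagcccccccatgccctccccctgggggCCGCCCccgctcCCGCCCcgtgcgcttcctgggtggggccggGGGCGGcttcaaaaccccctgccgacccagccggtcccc
TGFB2: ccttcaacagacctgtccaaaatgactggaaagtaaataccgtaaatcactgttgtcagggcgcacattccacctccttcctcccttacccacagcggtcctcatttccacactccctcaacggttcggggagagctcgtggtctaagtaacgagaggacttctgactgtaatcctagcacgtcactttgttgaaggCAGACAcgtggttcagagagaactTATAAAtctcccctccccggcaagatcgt
The TGFB1 window was 76.8% G and C and held 6 GC boxes, no TATAAA and no CAGACA. The TGFB2 window was 50.4% G and C and held no GC box, 1 TATAAA starting 29 bases before the gene start and 1 CAGACA starting 53 bases before it. Among 27305 promoter windows of the same length 42.3% held a GC box, 11.1% TATAAA and 13.6% CAGACA, with a median G and C content of 58.0%. Windows were found for 8 of the 10 members, all except BMP2 and BMP7. The palindrome GTCTAGAC, a high-affinity SMAD3 and SMAD4 site present in 0.176% of all windows, was in none of the 8 windows. Sites outside these 250 bases, or near another start of the same gene, were not searched for, so a gene may carry the palindrome elsewhere. The GC-rich element GGCGCC, bound by BMP-activated SMADs and present in 16.1% of all windows, was found once each for BMP4, SMAD2 and SMAD4, and the BMP4 match shares 1 base with a GC box. None of these matches in TGFB1 or TGFB2 overlapped. They describe letters in a fixed window and say nothing of binding.

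TGFB1, the most widely studied ligand of the family and a secreted growth inhibitor of epithelium, was close to the limit of detection in LNCaP. It had 2 counts there, a level of 0.185 CPM (0.0223 to 0.667), and 30 counts in MDA PCa 2b, a level of 3.52 CPM (2.38 to 5.03). The level was 19.1-fold above LNCaP in MDA PCa 2b (95% interval 4.85 to 165), and the intervals of the 2 levels did not overlap. Even in MDA PCa 2b its amplicon ranked low, above 25.3% of the amplicons with at least 1 count in that library. TGFB2, a second ligand that needs the co-receptor TGFBR3 for efficient binding, had 63 counts in LNCaP (5.81 CPM, 4.47 to 7.44) and 102 in MDA PCa 2b (12.0 CPM, 9.77 to 14.6). It was 2.06-fold above LNCaP in MDA PCa 2b (1.49 to 2.87), an interval that reaches below 2-fold. In the same libraries the proportion of TGFB2 to TGFB1 counts, which is free of the scaling but not of how well each amplicon amplifies, was 3150 per 100 in LNCaP and 340 per 100 in MDA PCa 2b. Compared between the lines, where amplicon efficiency cancels if it is the same in both, this proportion was 9.19-fold above MDA PCa 2b in LNCaP (exact conditional interval 2.20 to 82.1), and its width comes from the 2 TGFB1 counts. TGFB3, the remaining ligand of the subfamily, had 3 counts in LNCaP against 13 in MDA PCa 2b.

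The receptors of TGF-beta were unequally represented. TGFBR1, the kinase that phosphorylates SMAD2 and SMAD3, had 242 counts in LNCaP (22.3 CPM, 19.6 to 25.3) and 117 in MDA PCa 2b (13.7 CPM, 11.4 to 16.5). It was 1.62-fold above MDA PCa 2b in LNCaP (1.30 to 2.04), under the 2-fold call. TGFBR2, the ligand-binding kinase, had 0 counts in LNCaP, where the exact interval reaches 0.340 CPM, and 4 counts in MDA PCa 2b (0.470 CPM, 0.128 to 1.20). The exact interval of its ratio, MDA PCa 2b over LNCaP, reached down to 0.841, so a difference was not detectable at this depth. For every 100 TGFBR1 counts there were 0 TGFBR2 counts in LNCaP against 3.42 in MDA PCa 2b. The exact interval of this proportion, MDA PCa 2b over LNCaP, begins at 1.34-fold and has no upper end. It rests on 0 and 4 TGFBR2 counts and also takes in the lower TGFBR1 level of MDA PCa 2b, so it shows no difference in TGFBR2 itself. Both receptors are required for TGF-beta signalling in the textbook scheme, and each level here rests on 1 amplicon.

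The BMP ligands were at or near 0 in both lines. BMP2, a strong inducer of bone formation, had 1 count in LNCaP and 0 in MDA PCa 2b. BMP4, the closest relative of BMP2, had 2 and 0 counts, and BMP7, a ligand of another BMP subgroup that is expressed in kidney and skeletal tissue, had 0 in both. Together the 3 genes had 3 counts in LNCaP against 0 in MDA PCa 2b, so no ratio is given, and the planned comparisons of BMP2 and BMP7 with BMP4 could not be made. The exact intervals reach 0.340 CPM for BMP7 in LNCaP and 0.433 CPM for each of the 3 in MDA PCa 2b.

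SMAD2 and SMAD4 had the highest counts of the members in both lines, and SMAD7 had slightly fewer than TGFBR1 in LNCaP. SMAD2 had 532 counts in LNCaP (49.1 CPM, 45.0 to 53.4) and 458 in MDA PCa 2b (53.8 CPM, 49.0 to 59.0), a ratio of 1.10 (0.966 to 1.24) whose interval holds no difference. SMAD4, the common partner and a tumour suppressor, had 978 counts in LNCaP (90.2 CPM, 84.7 to 96.1) and 405 in MDA PCa 2b (47.6 CPM, 43.1 to 52.4). It was 1.90-fold above MDA PCa 2b in LNCaP (1.69 to 2.13), with level intervals that did not overlap, and was called apart at 1.5-fold, as were 22.5% of all measured genes in that direction, but not at 2-fold. SMAD7 had 232 counts in LNCaP (21.4 CPM, 18.7 to 24.3) and 311 in MDA PCa 2b (36.5 CPM, 32.6 to 40.8), 1.71-fold above LNCaP in MDA PCa 2b (1.44 to 2.03). None of the 3 was called, SMAD4 leaning to LNCaP and SMAD7 to MDA PCa 2b. For every 100 SMAD2 counts there were 184 SMAD4 counts in LNCaP against 88.4 in MDA PCa 2b, a proportion 2.08-fold above MDA PCa 2b in LNCaP (1.75 to 2.47). SMAD7 stood at 43.6 per 100 SMAD2 counts in LNCaP against 67.9 in MDA PCa 2b, 1.56-fold above LNCaP in MDA PCa 2b (1.25 to 1.93). Both proportions are free of the scaling, and both lie outside 1 as far as counting error goes.

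**Figure D2:**
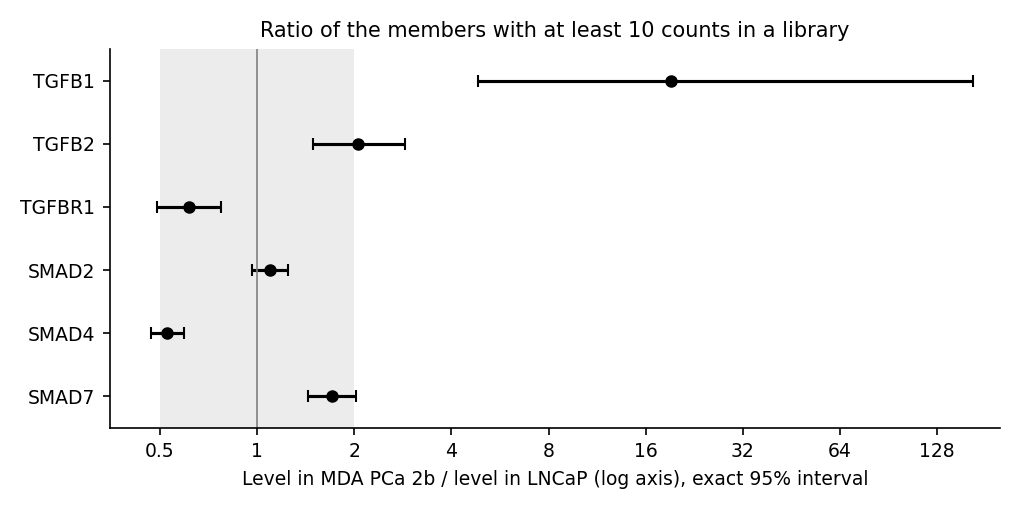
Ratio of the level in MDA PCa 2b to that in LNCaP for the 6 members with at least 10 counts in a library, on a log axis with exact 95% intervals; the grey band spans ratios within 2-fold. TGFB1 lies outside the band at 19.1, SMAD4 and TGFBR1 lie to the left of 1, SMAD7 and TGFB2 to the right, and the interval of SMAD2 crosses 1.

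All 3 SMAD members lie on chromosome 18, SMAD2 and SMAD7 close together with the translation factor gene CTIF as the measured gene between them. CTIF had 90 counts in LNCaP against 171 in MDA PCa 2b, a log2 ratio of 1.27. Of the 10 measured genes nearest to SMAD4, 1 was called higher in LNCaP and 2 higher in the other line, with a median log2 ratio of −0.62 beside −0.92 for SMAD4 itself. Around SMAD2 the median was −0.76 with 4 genes higher in LNCaP and 1 lower, and around SMAD7 it was −0.65 with 3 and 1. These 2 sets share genes. TGFB1, on chromosome 19, had neighbours with a median of 0.17 and 1 of 10 higher in MDA PCa 2b, CYP2B6. TGFB2 on chromosome 1 had neighbours at −0.70 and TGFBR1 on chromosome 9 at −0.55. The direct neighbours of TGFB1, CCDC97 and B9D2, had log2 ratios of −0.58 and 1.11, against 3.96 for TGFB1.

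**Figure D3:**
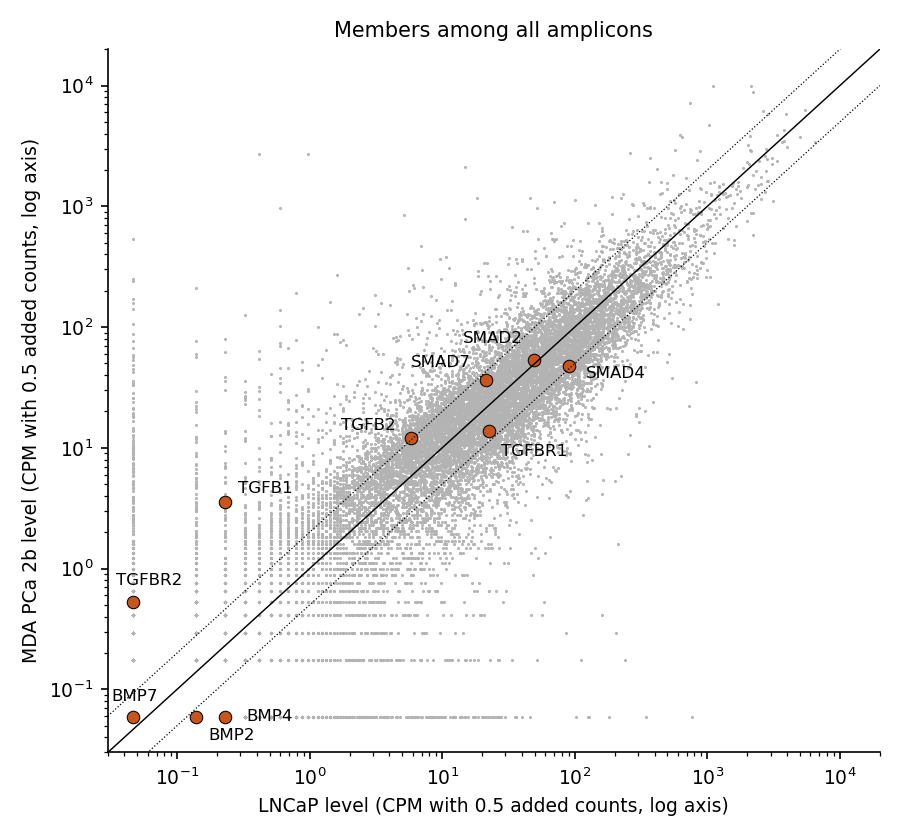
Level in LNCaP (x axis) against level in MDA PCa 2b (y axis) for every amplicon, in CPM with 0.5 added counts on log axes; grey points are all 20802 amplicons, orange points the members, the solid line equality and the dotted lines 2-fold differences. The SMADs and TGFBR1 lie inside the main cloud, TGFB2 on the dotted line, TGFB1 above it, and TGFBR2 and the BMP ligands in the corner of very low counts.

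Other genes of the pathway were taken from 7 lists by role, 104 genes of which 68 were measured. Of these 22 were higher in MDA PCa 2b (32.4%, background 10.9%) and 10 higher in LNCaP (14.7%, background 13.2%), with a median log2 ratio of 0.26. Of the 52 with at least 10 counts in both lines, 15 were higher and 7 lower in MDA PCa 2b, 42.3% called against 20.1% of all such genes. The lists were chosen with earlier results of these data known, so the shares above background describe these lists only. The share called was 86.7% for the target genes (13 of 15), 44.4% for latency and activation (4 of 9), 33.3% for intracellular modulators (6 of 18) and 28.6% for receptors (2 of 7), with 5 of 10 ligands, 1 of 4 antagonists and 1 of 5 SMADs.

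Among the other SMADs, SMAD3, which TGFBR1 phosphorylates together with SMAD2, was the 1 of 5 called. It had 162 counts in LNCaP (14.9 CPM) and 661 in MDA PCa 2b (77.7 CPM), 5.20-fold above LNCaP in MDA PCa 2b (4.37 to 6.21). For every 100 SMAD2 counts there were 30.5 SMAD3 counts in LNCaP against 144 in MDA PCa 2b, a proportion 4.73-fold above LNCaP in MDA PCa 2b (3.81 to 5.90), a comparison chosen after the values were seen. The BMP-side genes SMAD5 and SMAD1 were not called, with SMAD5 at 160 and 102 CPM, 1.57-fold above MDA PCa 2b in LNCaP (1.45 to 1.70), and SMAD1 at 56.7 and 48.3 CPM, 1.17-fold above MDA PCa 2b in LNCaP (1.03 to 1.33). SMAD6, the other inhibitory SMAD beside SMAD7, had 60 and 55 counts, a ratio of 1.17 (0.795 to 1.71).

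The BMP receptors were read in both lines although BMP2, BMP4 and BMP7 were not. BMPR2, the BMP type II receptor, had 2804 counts in LNCaP against 1015 in MDA PCa 2b and was 2.17-fold above MDA PCa 2b in LNCaP (2.02 to 2.33), which no longer held with upper quartile scaling. ACVR1, a BMP type I receptor, had 129 and 301 counts and was 2.97-fold above LNCaP in MDA PCa 2b (2.41 to 3.68). The type I receptors BMPR1A (499 and 608 counts) and BMPR1B (890 and 530 counts) were not called. RGMB, a BMP co-receptor, was 2.30-fold (2.00 to 2.67) and TGFBR3, the co-receptor for TGFB2, 2.49-fold (1.70 to 3.73) higher in LNCaP without passing 2-fold. Scaling by library totals or by DESeq2 size factors brought RGMB past it. Of 12 receptors and co-receptors listed 7 were measured, 1 higher in each line, with a median log2 ratio of −0.76.

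Of 23 other ligands 10 were measured and 11 were at 0 in both lines, with 3 called higher and 2 lower in MDA PCa 2b. GDF15, a distant member of the family and a stress-induced secreted factor, was by far the most read, with 3866 counts in LNCaP against 4019 in MDA PCa 2b, 1.32-fold above LNCaP in MDA PCa 2b (1.27 to 1.38). GDF11, related to myostatin, was 3.47-fold (2.88 to 4.20) and AMH, anti-Mullerian hormone, 5.68-fold (3.69 to 9.06) higher in MDA PCa 2b. GDF9, an oocyte factor, had 56 and 4 counts and was 11.0-fold above MDA PCa 2b in LNCaP (4.06 to 41.8). MSTN, with 1 and 15 counts, and BMP8A, with 15 and 0, were the remaining called ligands, named after their values were seen. BMP8A has a near-identical copy, BMP8B, so its counts are uncertain.

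Proteins that store, activate or block the ligands differed one by one. THBS1, thrombospondin 1, which can release TGF-beta from its latent complex, had 126 counts in LNCaP against 1178 in MDA PCa 2b, 11.9-fold above LNCaP in MDA PCa 2b (9.90 to 14.4). FURIN, the protease that cleaves the TGF-beta precursor, had 264 and 717 counts, 3.46-fold above LNCaP in MDA PCa 2b with its whole interval beyond 2-fold. LTBP4, a latent TGF-beta binding protein, was 2.73-fold above MDA PCa 2b in LNCaP (2.20 to 3.43), and ITGAV, the integrin chain that takes part in activation, 1.95-fold (1.69 to 2.25), which did not pass 2-fold. ITGB8, named after its values were seen, had 1 and 14 counts. Of 9 measured genes of latency and activation 3 were higher and 1 lower in MDA PCa 2b, and their median log2 ratio of 1.53 became −0.78 over the 6 with at least 10 counts in both lines. Of 14 extracellular antagonists 10 stayed under 10 counts in both lines. NOG (noggin), an antagonist of BMP2, BMP4 and BMP7, had 16 and 22 counts, and TWSG1, a BMP modulator, was 1.20-fold above MDA PCa 2b in LNCaP (1.10 to 1.32). CHRDL1, with 1 and 16 counts, was the 1 antagonist called and was named after its values were seen.

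Inside the cell, SKIL (SnoN) and PMEPA1, both of which restrain SMAD signalling and are induced by TGF-beta, were higher in MDA PCa 2b. SKIL had 508 counts in LNCaP against 2591 in MDA PCa 2b, 6.50-fold higher (5.90 to 7.16). PMEPA1, which also responds to androgen, had 291 and 1564 counts, 6.84-fold higher (6.04 to 7.78). TRIM33, a SMAD4 ubiquitin ligase and partner of SMAD2 and SMAD3, was 3.12-fold above LNCaP in MDA PCa 2b (2.67 to 3.67), and STRAP, which acts with SMAD7 at the receptor, 2.59-fold above MDA PCa 2b in LNCaP (2.37 to 2.84). SMURF1, a ubiquitin ligase that SMAD7 brings to the receptors, at 2.69-fold above LNCaP in MDA PCa 2b (2.20 to 3.30), and USP15, a deubiquitinase of the pathway, at 2.71-fold above MDA PCa 2b in LNCaP (2.23 to 3.32), complete the 6 called of 18 measured. They were named after their values were seen.

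Genes known as targets of TGF-beta or BMP signalling differed most, 9 of 15 measured being higher and 4 lower in MDA PCa 2b. These are 60% and 26.7%, with backgrounds of 10.9% and 13.2%. Of the 19 target genes listed, 4 stayed under 10 counts in both lines. They were TGFBI (2 and 4 counts, LNCaP first), CDKN2B (5 and 1), SNAI2 (5 and 6) and ATOH8 (0 and 3). TGM2, ID3, ID4 and CTGF passed the count minimum through MDA PCa 2b alone, and MSX2 through LNCaP alone. Of the 10 with at least 10 counts in both lines, 5 were higher and 3 lower in MDA PCa 2b (backgrounds 8.89% and 11.2%). The median log2 ratio of the 15 was 2.88, or 2.68 with genes at 0 set to 3 counts. Over the 10 with at least 10 counts in both lines it was 1.87. TGM2, tissue transglutaminase, had 2 counts in LNCaP against 679 in MDA PCa 2b, 432-fold higher (119 to 3577). FN1, fibronectin, had 121 and 2607 counts, 27.4-fold above LNCaP in MDA PCa 2b (22.9 to 33.2). ID1, an inhibitor of basic helix-loop-helix factors and a classical BMP target, had 46 counts in LNCaP (4.24 CPM) and 696 in MDA PCa 2b (81.8 CPM), 19.3-fold higher (14.3 to 26.6). The other 3 genes of the ID family, named after their values were seen, went the same way. ID2 had 145 and 733 counts, 6.44-fold above LNCaP in MDA PCa 2b (5.38 to 7.75), and ID3 had 8 and 107 counts, 17.0-fold higher (8.34 to 40.5). ID4, unread in LNCaP with 37 MDA PCa 2b counts, was at least 12.2-fold higher in the latter by its exact interval (15.7-fold with LNCaP set to 3 counts).

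The remaining targets were mixed in direction. MSX2, a BMP-induced homeobox factor, had 64 counts in LNCaP against 0 in MDA PCa 2b, at least 13.2-fold above MDA PCa 2b in LNCaP by its exact interval (16.8-fold with MDA PCa 2b set to 3 counts), while MSX1, its relative, had 69 and 33 counts and was not called. HMOX1, COL1A1 and CDKN1A, named after their values were seen, favoured LNCaP. HMOX1 was 5.88-fold above MDA PCa 2b in LNCaP (3.92 to 9.14) and COL1A1 4.32-fold (2.78 to 6.98). CDKN1A was 2.21-fold above MDA PCa 2b in LNCaP (2.06 to 2.38), which upper quartile scaling brought under the call. KLF10, a TGF-beta inducible early factor, had 263 and 430 counts and was not called. JUNB was 9.32-fold above LNCaP in MDA PCa 2b (8.39 to 10.4) and GADD45B 7.37-fold (6.32 to 8.63), and CTGF had 0 and 12 counts, at least 3.54-fold above LNCaP in MDA PCa 2b by its exact interval (5.09-fold with LNCaP set to 3 counts); these 3 were also named after their values were seen. JUNB and GADD45B are also immediate early or stress-induced genes, and other genes of that class moved with them, FOS at 15.6-fold (14.5 to 16.8) and EGR1 at 20.4-fold (18.3 to 22.7) higher in MDA PCa 2b, FOSB at 8 and 1642 counts, while IER2 had 0 and 2. Their part in the differences of the target genes was not tested.

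**Figure D4:**
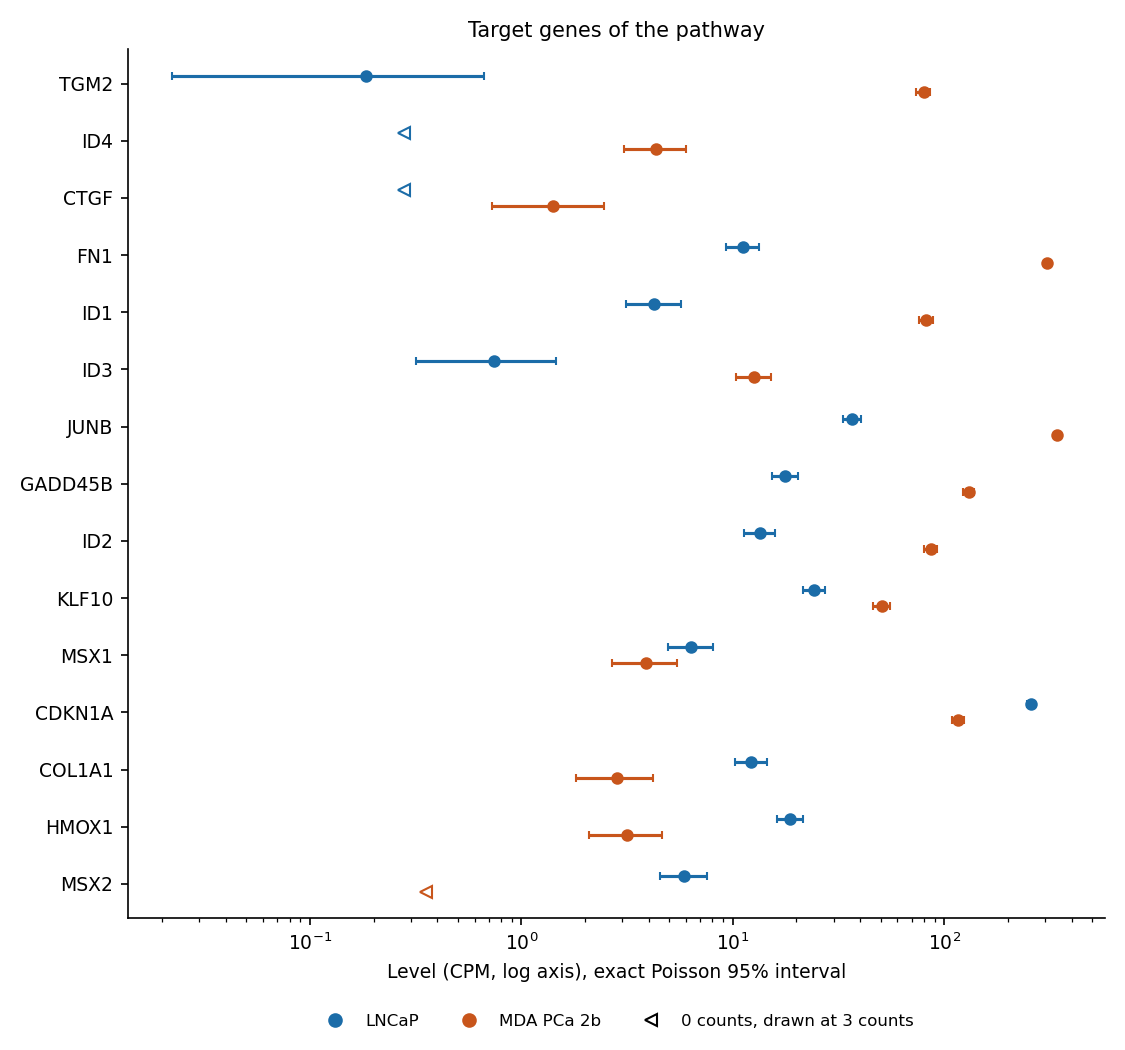
Level of the 15 measured target genes in CPM on a log axis, ordered by the ratio between the lines, with LNCaP in blue, MDA PCa 2b in orange, exact Poisson 95% intervals and open triangles for 0 counts drawn at 3 counts. The 9 genes called higher in MDA PCa 2b, from TGM2 to ID2, stand at the top, and MSX2, HMOX1, COL1A1 and CDKN1A, called higher in LNCaP, at the bottom.

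**Figure D5:**
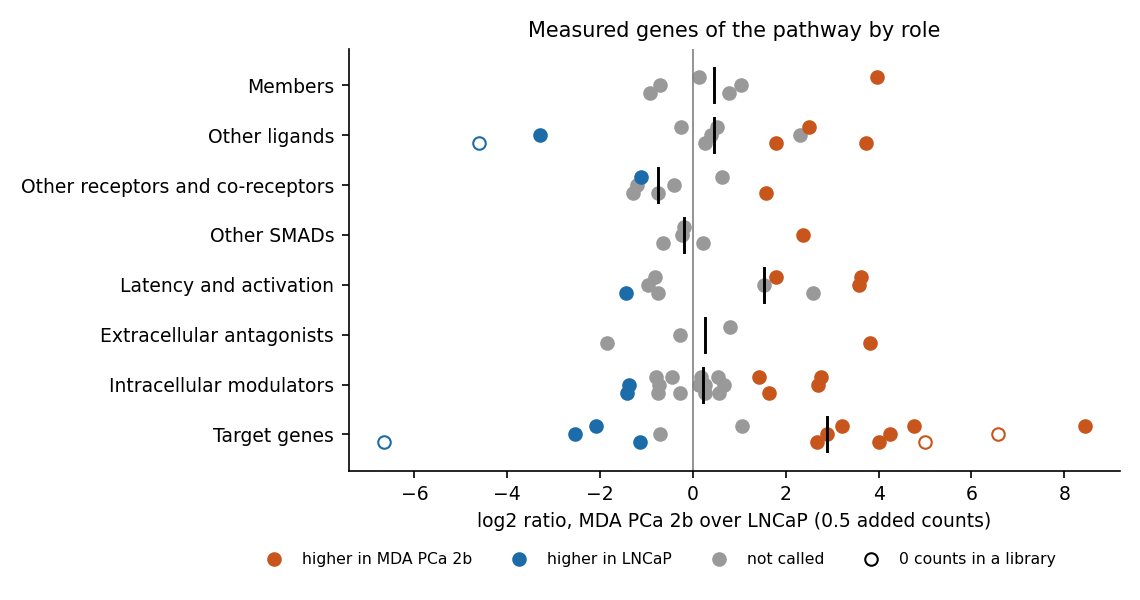
Log2 ratio, MDA PCa 2b over LNCaP with 0.5 added counts, of each measured member and of the other measured pathway genes by role; orange marks genes called higher in MDA PCa 2b, blue those called higher in LNCaP, grey genes not called, open circles genes at 0 counts in a library, and black bars the medians. The members have a median of 0.45 and the target genes the widest range, with a median of 2.88.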

How the data were processed

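The authors deposited raw read counts, a column for each library and a row for each amplicon, per the file headers and the values. AmpliSeq Transcriptome libraries were made from 10 ng of total RNA extracted on columns, per the labels' protocols. hg19 and DESeq appear in the submitters' processing notes without a stated role. Aligner, counting tool, filters and amplicon positions are not stated in the material used. No normalization was visible in the counts. A sequence difference under a primer would lower 1 gene in 1 line.

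Of 20812 rows, 10 spike-in rows at 0 were left out. Another 28 symbols had been turned into dates by a spreadsheet, none of them a gene named here. Columns were matched to samples by name. Counts were scaled by the library total times the TMM factor (edgeR 4.0.16; 1.006 for LNCaP, 0.994 for MDA PCa 2b), and log2 ratios used 0.5 added counts. Intervals were computed with scipy 1.17.1, and proportions between genes with the exact conditional interval of a table of counts. The steps were tested on simulated data. Chromosomes and neighbours came from the RefSeq gene table of GRCh38.p14 by gene identifier, 5 measured genes on each side, without coordinates, since hg19 is another build. DESeq2 1.42.0 supplied size factors as an alternative scaling.

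The members and lists were chosen with earlier results of these data known. Genes named are all members, up to 4 per list with at least 50 counts in a library and the interval farthest from 1, and genes at 0 in one library and at 50 counts or more in the other. Names outside this rule are marked in the text or given as counts only, with some exceptions. These are the genes next to members, the cell type markers, and the immediate early genes FOS and EGR1, which no list holds. One marker of the lists is not used here, and one target gene is not reported and is left out of its list's counts.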

Additional observations from a re-analysis of the deposited data

How the results depend on the processing

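Over 14 alternative settings none of the 6 measured members changed direction in its log2 ratio, and TGFB1 kept its call except where it was filtered out. No member was called higher in MDA PCa 2b (0) with a minimum of 50 counts or, a setting added after seeing the data, with 10 counts in both lines. The median of the members became 0.13 under both settings, where TGFB1 leaves it. It was also 0.13 with no filter, where members under 10 counts enter it. At 1.5-fold, 1 member (SMAD4) was higher in LNCaP. Of the other pathway genes, the 10 higher in LNCaP became 3 at a 3-fold call, 4 with an assumed spread of 20% between cultures and 2 with 40%. In the same order, the 22 higher in MDA PCa 2b became 15, 16 and 11. The shares over all measured genes fell as well, to 6.21%, 6.42% and 3.28% higher in LNCaP. For MDA PCa 2b they fell to 5.9%, 6.04% and 3.63%. With 20%, the interval of SMAD7 in MDA PCa 2b over LNCaP was 0.956 to 3.05, that of TGFBR1 0.340 to 1.12 and that of SMAD4 0.300 to 0.930. With 40% the interval of each measured member except TGFB1 (2.84 to 85.1) held no difference. The proportions between genes with a finite value were recomputed only after thinning LNCaP to the depth of MDA PCa 2b. They stayed inside their intervals, but thinning draws on the same reads and could hardly move them out. The assumed spreads of 20% and 40% were not applied to the proportions, so their variation between cultures was not tested. No paired analysis was possible because each line has 1 library. Counts of 0 to 4 limit TGFBR2, the BMP ligands and TGFB1 in LNCaP.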
